A study of Mus musculus with 8 samples.

Results

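Peroxisomes are small organelles that shorten very-long-chain and branched fatty acids by β-oxidation, a process that for other fatty acids also takes place in mitochondria. Their own β-oxidation pathway starts with acyl-CoA oxidases, goes on with a multifunctional protein that hydrates and dehydrogenates the acyl chain, and ends with thiolases. The matrix enzymes are made in the cytosol and carried in by receptors of the peroxin (Pex) family, and other peroxins insert the membrane proteins. Described here are 9 genes of this system in cultured mouse embryos, some of which were given trimetazidine (TMZ), a drug that blocks long-chain 3-ketoacyl-CoA thiolase in β-oxidation. The genes were chosen by their roles and, with results of these data in view, by their fold changes between TMZ and control, which are therefore given as a description. Decr2 (2,4-dienoyl-CoA reductase), Hsd17b4 (the multifunctional protein) and Acox3 (an acyl-CoA oxidase) act in β-oxidation. Pecr is a trans-2-enoyl-CoA reductase and Abcd3 a membrane transporter for acyl-CoA. Pex3 and Pex19 insert membrane proteins, and Pex5 and Pex14 receive and dock matrix proteins.

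The series held embryos from ICR mice at the 8-cell stage, collected 70 h after hCG, and at the morula stage, collected 78 h after hCG. Control embryos carried the genotype label WT, and the treated embryos, labelled TMZ inhibitor, received 100 μM TMZ from the 2-cell stage on according to the labels, while the study's text also mentions a start at the zygote stage for its inhibitors. All were grown in KSOM medium. There were 4 groups of 2 libraries, prepared with a kit that amplifies full-length mRNA, and the number of embryos per library was not given in the sources used here. The study calls its RNA replicates biological but does not give the same number of them throughout. The labels do not say whether the 2 libraries of a group came from separate cultures. The SDs given measure the spread between these libraries, which may in part be technical. The SEs also draw on the spread of other entries, as described below. The library totals recovered from the tables ran from 31672356 to 64814423 fragments. Both TMZ columns of the 8-cell data have the same header, and they are called TMZ libraries A and B with no replicate number.

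The deposited tables list FPKM, the fragments of a gene per kilobase of its length and per 1e+06 fragments of the library, without gene names. An entry was therefore named by its recovered length and by its place in the order of Ensembl identifiers, at a posterior probability of at least 0.95. This named 25927 of 31899 entries in the 8-cell table and 23139 of 29202 in the morula table. All 9 genes had an entry at the 8-cell stage and 8 of the 9 at the morula stage. The posterior of these entries was at least 0.9805, the value of Pex19 in the morula table. The entry that matches Pex5 in the morula table had a posterior of 0.948, just below the limit. Its values are given as those of a probable Pex5 entry and enter no count. No recovered length was the same as the annotated exonic length: it was 3404 of 4507 bases for Hsd17b4, 1516 of 1998 bases for Pecr and 2653 of 2865 bases for Decr2, while the other 6 genes stood between 90.9% and 99.97% of it. Each gene had the same recovered length in both tables. The entries just before Decr2, Hsd17b4, Pex3 and Pex19 in identifier order (Stpg3, Dtwd2, Adat2 and Ncstn) had exactly their annotated lengths or a whole fraction of them. Of the entries just after them only Fuca2, after Pex3, did. Anln after Decr2 had 9063 of 9986 bases and Rab27b after Hsd17b4 10679 of 10906. After Pex19 in the 8-cell table stood Phyhip with 1455 of 3393 bases, at a posterior of 0.738. Neither entry next to Acox3, Pecr, Abcd3, Pex5 or Pex14 had such a length.

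Matrix enzymes of the peroxisome commonly end in a type 1 targeting signal, which lies in the last 3 codons before the stop codon and is bound by the import receptor Pex5. The ends of 3 of the enzymes are shown because they tie the β-oxidation genes to the import genes in the same list. Each line is the last 30 coding bases of the canonical transcript, read from GRCm39, with those 3 codons in capitals.
Decr2 (chr17:26301853-26301882, minus strand): ctagagtttgaatccttctctGCTAAGCTG
Pecr (chr1:72298510-72298539, minus strand): aaggaatcttttaagaagaaaGCCAAGCTC
Acox3 (chr5:35769446-35769475, plus strand): tctgtagccgacaggctaaagTCCCAGCTG
These bases lie in the last coding exon of each gene. They are the annotated sequence and were not read from the embryos.

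Promoters are shown for Decr2, whose level was lower in every TMZ library than in the controls of its stage, and for Pex3, which was higher in TMZ morulae. They come from RefSeq on GRCm38.p6, not the build of the tables, and run from 250 bases before to 50 bases after the annotated start. Capitals mark matches to GGGCGG (GC box) on either strand.
Decr2 (chr17:26090115-26090414, minus strand): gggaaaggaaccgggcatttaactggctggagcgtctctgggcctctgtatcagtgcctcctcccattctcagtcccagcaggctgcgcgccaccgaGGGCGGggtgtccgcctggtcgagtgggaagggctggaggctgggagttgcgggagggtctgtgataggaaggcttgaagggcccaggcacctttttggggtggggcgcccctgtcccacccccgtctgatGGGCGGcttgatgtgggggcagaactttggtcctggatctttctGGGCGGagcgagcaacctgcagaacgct
Pex3 (chr10:13553093-13553392, minus strand): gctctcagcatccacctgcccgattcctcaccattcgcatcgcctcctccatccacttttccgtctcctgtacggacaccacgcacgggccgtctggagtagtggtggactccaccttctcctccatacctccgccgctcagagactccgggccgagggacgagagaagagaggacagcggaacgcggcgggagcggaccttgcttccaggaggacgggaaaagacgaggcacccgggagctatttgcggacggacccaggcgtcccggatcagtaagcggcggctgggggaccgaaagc
The Decr2 window held 3 such matches and the Pex3 window none, at the same GC content of 64.3%. The other promoters of the genes held 3 (Pecr), 1 (Pex14), 5 (Acox3), 0 and 0 (Abcd3), and 0, 4 and 3 (Pex5). The windows shown were picked by the direction of change, and a link between matches and levels was not tested. The table had 10 promoters of 7 of the genes. The GC box was found in 6 of these 10 promoters and in 35.7% of all 32851 promoters, and CCAAT in 3 of the 10 and in 37.4% of all. The direct repeat AGGTCANAGGTCA, a consensus of the peroxisome proliferator-activated receptors (PPAR), was found in none of the 10 promoters and in 13 of all 32851. CACGTG (E-box) was found in none of the 10 and in 7.15% of all. No match overlapped a match to another motif in the windows shown. A match is a description of these letters and not a binding site.

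On GRCm39 the genes lie on 8 chromosomes. Pecr (chr1:72297846-72323481, minus strand) and Pex19 (chr1:171954285-171967307, plus strand) share chromosome 1. Decr2 is at chr17:26300178-26309528 on the minus strand, Hsd17b4 at chr18:50261268-50330439 on the plus strand and Acox3 at chr5:35740326-35772717 on the plus strand. Abcd3 is at chr3:121552423-121609141, Pex3 at chr10:13399584-13428917, Pex5 at chr6:124373564-124392103 and Pex14 at chr4:149044992-149184335, all on the minus strand. The strand setting of the counting was not given in the sources used here, so reads of overlapping genes cannot be told apart. Exons of other genes overlapped 28.3% of the exonic bases of Pex14, 11.7% of those of Decr2 and 10.2% of those of Acox3. In the other 6 genes the overlap was at most 5.87%. Of the 31-base stretches of the Decr2 exons 15.8% occur elsewhere in the genome, compared with 6.71% for Pex3, 5.42% for Pecr and at most 3.56% for the other 6 genes.

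The genes covered a wide range of levels. In control 8-cell embryos Pex19 was highest, with a mean of 40.9 ± 1.59 FPKM (SD, n = 2), followed by Pex3 at 27.5 ± 8.55, Pecr at 14.8 ± 3.33, Decr2 at 10.9 ± 0.783 and Hsd17b4 at 2.94 ± 0.265 FPKM. The ranges of these 5 neighbours in the order did not overlap. Abcd3 (1.09 ± 0.543 FPKM), Pex14 (1.09 ± 0.5996 FPKM) and Pex5 (0.808 ± 0.0165 FPKM) had overlapping ranges, and Acox3 was next to 0. In control morulae the order was Pex19, Pecr, Pex3, Decr2, Hsd17b4, Abcd3, Pex14 and Acox3, and the ranges of Pex19 and Pecr and those of Pex3 and Decr2 overlapped. The tables of the 2 stages were normalized separately, so levels of the stages stand side by side without a test. Control Hsd17b4 stood at 2.75 and 3.13 FPKM in 8-cell embryos and at 4.48 and 7.23 FPKM in morulae, and control Pecr at 12.5 and 17.2 FPKM and at 25.2 and 26.7 FPKM.

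**Figure D1:**
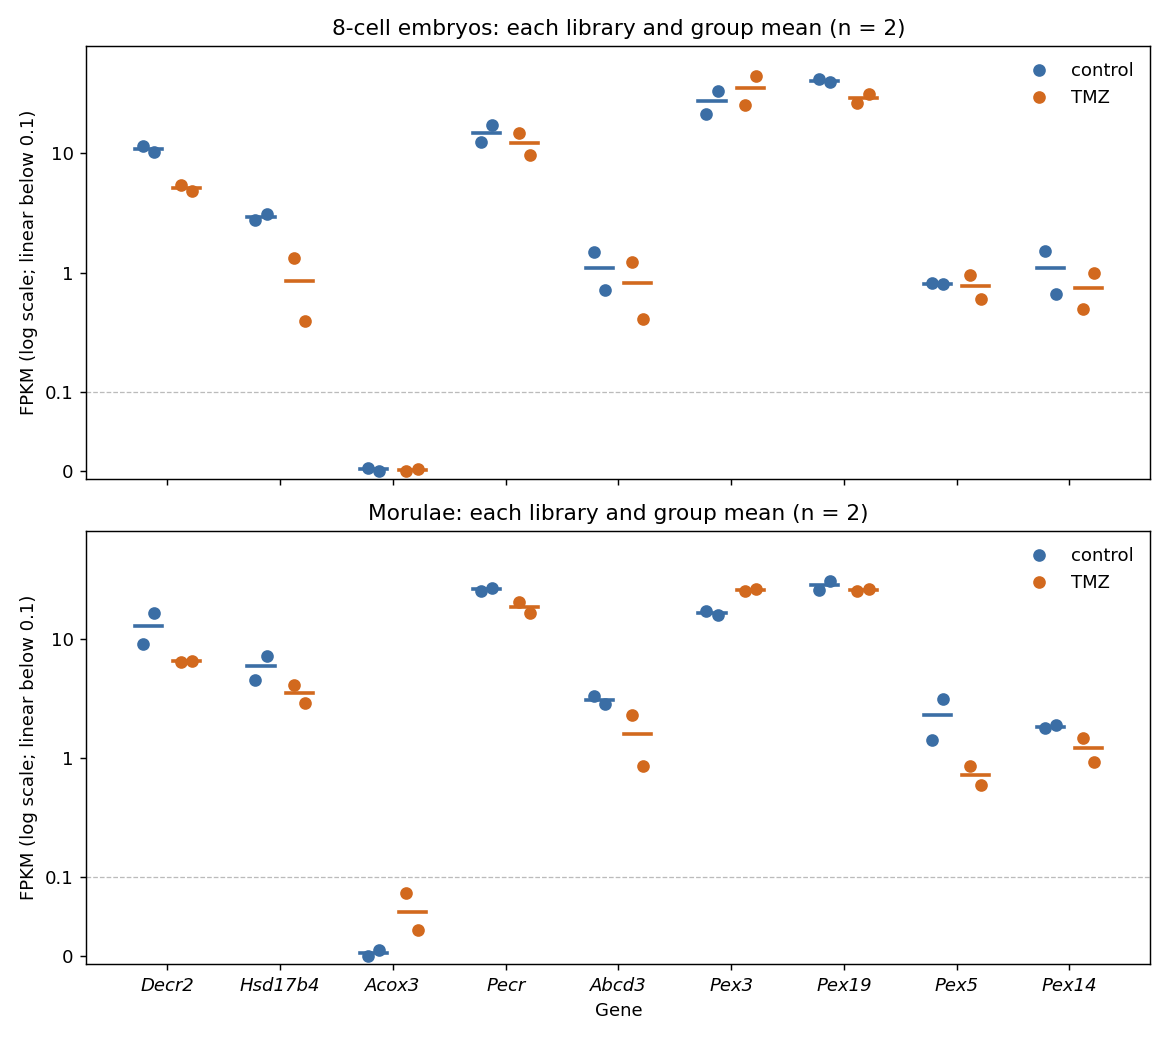
FPKM of the 9 genes in each library (points) with the mean of the 2 libraries of a group (lines), control in blue and TMZ in orange, for 8-cell embryos (top) and morulae (bottom); the axis is logarithmic above 0.1 FPKM and linear below it, and the Pex5 points of the morulae belong to the entry with a posterior of 0.948. Decr2 and Hsd17b4 are lower in both TMZ libraries at both stages, Pex3 is higher in both TMZ morula libraries, and Acox3 lies below 0.1 FPKM throughout.

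The difference between TMZ and control was taken within each stage on the log2(FPKM + 1) scale, on which low genes appear to change less than they did. Entries whose mean reached 1 FPKM were tested. An entry was called at an unadjusted P under 0.05 in limma with a log2 fold change beyond 0.5. Each SE is the moderated one of limma, in which the variance of a gene is drawn towards that of entries at a similar level. It can be larger or smaller than the spread between the libraries of that gene. Each library pools the RNA of whole embryos, so fewer cells of a type and less RNA per cell cannot be told apart. Since the genes were chosen on this contrast, their differences carry no p-value. Of the 9 genes 5 passed this filter on low values in 8-cell embryos and 7 in morulae. Decr2 and Hsd17b4 were called lower in 8-cell embryos, where 4.96% of all 10021 entries tested were called lower and 1.35% higher. At the morula stage Decr2 was called lower and Pex3 higher, where 10.7% of all 9685 entries tested were called lower and 7.16% higher. For the same reason nothing is read from these counts. No entry had an adjusted p-value under 0.05 at the 8-cell stage by limma or by voom, with 632 entries at an unadjusted P under 0.05, and 3 entries did at the morula stage.

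The fold changes of all entries were themselves shifted. Their median was -0.19 on the log2 scale in 8-cell embryos, where 69.1% of the entries tested were below 0, and -0.08 in morulae, where 57.3% were. Median-ratio scaling of the libraries, over the tested entries above 0 in all 4 of them, moved the 8-cell median by 0.20 to 0.01 and the morula median by 0.08 to 0.00. The share of calls that were higher in TMZ then went from 21.4% to 48.9% in 8-cell embryos and from 39.99% to 55.1% in morulae. The study, which tested counts at the same cutoffs, reported more genes higher than lower with TMZ at both stages. The calls before scaling had the opposite balance, and the reason was not tested. Over the tested genes of the list, which were chosen on this contrast, the median was -0.48 in 8-cell embryos and -0.47 in morulae. None of these genes changed sign under this scaling or under voom on the recovered fragments. When the scaling was taken over all entries above 0, Pecr in 8-cell embryos went from -0.27 to 0.003, no gene of the list was called in 8-cell embryos, and the calls of Decr2 and Pex3 in morulae remained.

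Decr2 reduces the double bonds of polyunsaturated acyl-CoA so that the chain can pass through β-oxidation. At the 8-cell stage it stood at 11.5 and 10.4 FPKM in the control libraries and at 5.39 and 4.82 FPKM in TMZ libraries A and B. Both TMZ libraries lay below both controls, and the TMZ mean was 0.467 times the control mean. These values rested on 1244, 894, 615 and 829 fragments, the smallest whole numbers that the FPKM values allow. Its log2 fold change was -0.97 ± 0.36 (SE), or -0.78 relative to the median of all entries. With a library left out it ran from -1.03 to -0.90. After median-ratio scaling it was -0.74 and no longer past the threshold, nor was it past it without control replicate 1 or without control replicate 2.

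In morulae Decr2 stood at 8.97 and 16.5 FPKM in the controls and at 6.38 and 6.56 FPKM with TMZ. The groups again did not overlap, but the controls differed from each other by more than the lower control differed from the TMZ libraries. This gave a log2 fold change of -0.82 ± 0.29 (SE). It was -0.42 without control replicate 2 and -1.23 without control replicate 1, so that control replicate 2 carried much of the difference. The call was lost without control replicate 2, without either TMZ library and without the filter on low values.

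Hsd17b4 carries out the middle steps of peroxisomal β-oxidation. In 8-cell embryos it stood at 2.75 and 3.13 FPKM in the controls and at 1.32 (A) and 0.390 (B) FPKM with TMZ. The TMZ libraries, 193 and 86 fragments, differed from each other more than the controls did. A log2 fold change of -1.13 ± 0.41 (SE) resulted, with -1.50 without library A and -0.76 without library B. On the fragment numbers, without a pseudocount of 1 FPKM, voom gave -2.08. The call was lost without either control library, without TMZ library B and with scaling over all entries above 0. In morulae the controls were at 4.48 and 7.23 FPKM and the TMZ libraries at 4.10 and 2.88 FPKM, a log2 fold change of -0.59 ± 0.28 (SE). Both TMZ libraries lay below both controls, and the value did not pass the threshold. It was -0.30 without control replicate 2, and -0.89 and past the threshold without control replicate 1.

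Acox3 oxidizes branched acyl-CoA in the first step of the pathway. It was listed at 0.00425 and 0 FPKM in 8-cell controls and at 0 and 0.00268 FPKM with TMZ, which is 2, 0, 0 and 2 fragments. In morulae the controls had 0 and 3 fragments (0 and 0.00776 FPKM) and the TMZ libraries 30 and 12 fragments (0.0794 and 0.0329 FPKM). A count of 0 allows up to 3 fragments, or 0.00402 to 0.00822 FPKM in these libraries, a limit that covers counting error only. The TMZ morulae thus lay above the controls at a level far below that of the other 8 genes, and 10.2% of the exonic bases of Acox3 overlap other genes. The gene did not pass the filter and was not tested.

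Pecr reduces trans-2-enoyl-CoA in fatty acid elongation. In 8-cell embryos it stood at 12.5 and 17.2 FPKM in the controls and at 14.8 and 9.66 FPKM with TMZ, so the groups overlapped. The log2 fold change was -0.27 ± 0.37 (SE) and turned to 0.01 without TMZ library B. In morulae it stood at 25.2 and 26.7 FPKM in the controls and at 20.5 and 16.5 FPKM with TMZ. Here both TMZ libraries were below both controls, at a log2 fold change of -0.47 ± 0.19 (SE), short of the 0.5 that the threshold asks for. It was -0.32 without TMZ replicate 2, and -0.63 and past the threshold without TMZ replicate 1.

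Abcd3, which carries acyl-CoA across the peroxisomal membrane, was at 1.48 and 0.710 FPKM in 8-cell controls and at 1.23 and 0.410 FPKM with TMZ, below the filter. In morulae it was at 3.32 and 2.83 FPKM in the controls and at 2.31 and 0.852 FPKM with TMZ. The lower level of the TMZ morulae came mainly from replicate 2, with 178 fragments compared with 499 in replicate 1. The log2 fold change of -0.71 ± 0.32 (SE) was -0.30 without TMZ replicate 2 and -1.13 without TMZ replicate 1. It lay short of the threshold, and was past it without TMZ replicate 1, by voom, and with the replicate number as a block, at -0.71.

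**Figure D2:**
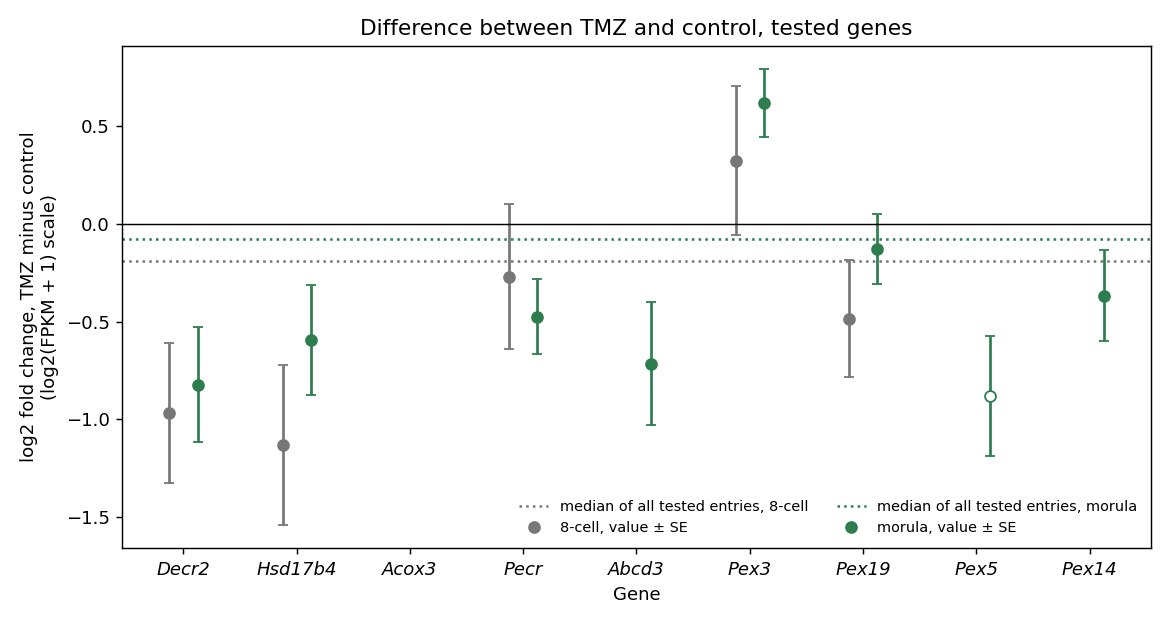
Log2 fold change of TMZ against control on the log2(FPKM + 1) scale (vertical axis) with its standard error for each gene that passed the filter, 8-cell in grey and morula in green; the open point is the Pex5 entry with a posterior of 0.948, and dotted lines are the medians of all entries tested. Pex3 is the only gene drawn above 0, at 0.32 and 0.62, and Decr2 lies near -0.9 at both stages.

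Of the membrane peroxins Pex3 was the higher in TMZ and Pex19 the lower at each stage, relative to control, though only the Pex3 value of the morulae passed the threshold. Pex3 is the membrane anchor to which Pex19, the carrier of newly made membrane proteins, docks. In morulae Pex3 stood at 17.0 and 15.8 FPKM in the controls and at 25.1 and 26.4 FPKM with TMZ. The replicates were close, with SDs of 0.884 and 0.942 FPKM (n = 2 each), and the groups were well apart. The log2 fold change was 0.62 ± 0.17 (SE), or 0.70 relative to the median of all entries, and ran from 0.57 to 0.67 with a library left out. Without TMZ replicate 2 it was no longer past the threshold. In 8-cell embryos Pex3 stood at 21.5 and 33.6 FPKM in the controls and at 25.8 (A) and 44.6 (B) FPKM with TMZ. The groups overlapped, and the log2 fold change of 0.32 ± 0.38 (SE) became -0.06 without library B.

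Pex19 stood at 42.0 and 39.8 FPKM in 8-cell controls and at 26.6 and 31.5 FPKM with TMZ. Both TMZ libraries lay below both controls, at a log2 fold change of -0.48 ± 0.30 (SE), or -0.30 relative to the median of all entries. In morulae it stood at 25.6 and 30.6 FPKM in the controls and at 25.002 and 26.0 FPKM with TMZ. There the groups overlapped, at a log2 fold change of -0.13 ± 0.18 (SE). Pex19 was above Pex3 in every control library of both stages, and in TMZ morulae the ranges of the 2 genes overlapped.

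Pex5 is the soluble receptor for type 1 targeting signals, and Pex14 is its docking partner at the membrane. Pex5 stood at 0.820 and 0.796 FPKM in 8-cell controls and at 0.955 and 0.599 FPKM with TMZ, where the groups overlapped. The probable Pex5 entry of the morula table stood at 1.42 and 3.13 FPKM in the controls and at 0.851 and 0.593 FPKM with TMZ. That is 185, 414, 110 and 74 fragments and a log2 fold change of -0.88 ± 0.31 (SE), past the threshold if the name is right. Pex14 stood at 1.51 and 0.662 FPKM in 8-cell controls and at 0.493 and 0.984 FPKM with TMZ. In morulae Pex14 stood at 1.77 and 1.88 FPKM in the controls and at 1.48 and 0.931 FPKM with TMZ, a log2 fold change of -0.37 ± 0.23 (SE). Both import genes were thus among the lowest of the list, with Pex14 above only 13.6% of the entries tested in morulae.

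Over the list, both TMZ libraries lay below both controls in 3 of 5 tested genes of 8-cell embryos (Decr2, Hsd17b4 and Pex19), where 29.6% of all entries tested did. None of the 5 lay wholly above, where 8.09% of all entries did. In morulae this held for 5 of 7 genes (Decr2, Hsd17b4, Pecr, Abcd3 and Pex14), where 33.3% of all entries did. Both TMZ libraries lay above both controls for 1 of the 7, Pex3, where 22.3% of all entries did. Since the genes were chosen on this contrast, nothing is read from these counts either.

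**Figure D3:**
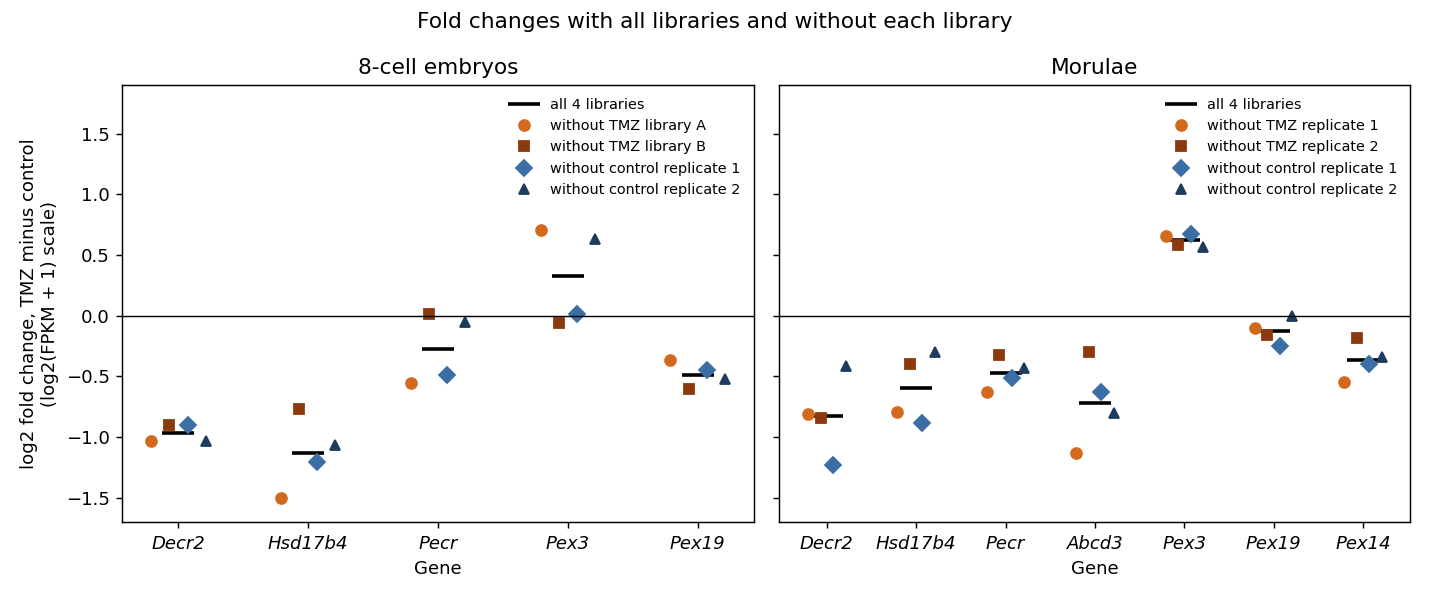
Log2 fold change of TMZ against control (vertical axis, log2(FPKM + 1) scale) of each tested gene with all 4 libraries of its stage (bars) and without each library in turn (symbols). Pex3 in morulae stays between 0.57 and 0.67, whereas Pex3 and Pecr at the 8-cell stage reach 0 from either side without TMZ library B.

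Of the wider peroxisome system, 72 other genes were listed by their textbook roles. Of these, 65 were named and 29 passed the filter in 8-cell embryos, and 57 and 28 in morulae. None of the 29 tested in 8-cell embryos passed the threshold, beside 4.96% of all entries called lower and 1.35% called higher. At such shares this absence says little about these genes. None had an unadjusted P under 0.05 in limma, while voom called 1 lower (Rxra). Their median log2 fold change was -0.20, beside -0.19 over all entries, and 22 of 29 were below 0, which became 12 of 29 after median-ratio scaling. In morulae 2 of 28 were called lower (Cat and Rxra) and 1 higher (Acbd5), beside 10.7% and 7.16% of all entries. Their median was -0.02, beside -0.08 over all entries, and 15 of 28 were below 0.

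Cat is catalase, which breaks down the hydrogen peroxide made by the oxidases. In morulae it stood at 7.76 and 7.53 FPKM in the controls and at 5.78 and 2.04 FPKM with TMZ. The log2 fold change was -0.93 ± 0.38 (SE, adjusted p = 0.247 by limma), and -0.35 without TMZ replicate 2. The call was lost without that library, without either control library, without the filter and with median-ratio scaling. At the 8-cell stage Cat stood at 1.16 and 0.306 FPKM in the controls and at 2.62 and 0.667 FPKM with TMZ, with overlapping groups.

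Rxra, the nuclear receptor that partners the PPARs, stood at 1.78 and 1.94 FPKM in control morulae and at 1.02 and 0.837 FPKM in TMZ morulae. Its log2 fold change was -0.57 ± 0.22 (SE, adjusted p = 0.225 by limma), and the call was lost when any of the 4 libraries was left out, at -0.64 to -0.50, with scaling over all entries above 0 and with the replicate number as a block. At the 8-cell stage it stood at 2.30 and 1.44 FPKM in the controls and at 0.704 and 0.521 FPKM with TMZ, a log2 fold change of -0.82 ± 0.38 (SE, adjusted p = 0.771 by limma). Both TMZ libraries lay below both controls at both stages.

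Acbd5, a membrane protein that binds very-long-chain acyl-CoA, stood at 5.09 and 4.37 FPKM in control morulae and at 7.80 and 6.74 FPKM in TMZ morulae. This gave a log2 fold change of 0.53 ± 0.21 (SE, adjusted p = 0.238 by limma), and this call too was lost when any of the 4 libraries was left out, at 0.44 to 0.62. Of the 31-base stretches of its exons 15.3% occur elsewhere in GRCm39. In 8-cell embryos its groups overlapped, at a log2 fold change of -0.13, or 0.10 after median-ratio scaling.

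Among the other β-oxidation genes 5 of 23 were tested at each stage, with none past the threshold. The more abundant were Scp2, which holds a thiolase domain, with means of 16.1 ± 0.531 and 14.2 ± 4.54 FPKM in control and TMZ 8-cell embryos and 24.9 ± 3.07 and 20.05 ± 0.760 FPKM in morulae (SD, n = 2), and the thioesterase gene Acot8. For Scp2 36.0% of the 31-base stretches occur elsewhere in GRCm39. The α-oxidation enzyme Phyh was at 43.3 to 50.7 FPKM in 8-cell controls and 39.9 to 48.1 FPKM in TMZ libraries, and at 52.4 to 67.6 FPKM and 65.4 to 67.9 FPKM in morulae, overlapping at both stages. The second gene of this role by level, Aldh3a2, did not pass the filter.

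Of the ether lipid synthesis genes Agps overlapped between the groups at both stages, and Gnpat was lower in both TMZ morula libraries (2.41 and 2.95 FPKM) than in both controls (3.58 and 4.27 FPKM), at an adjusted p = 0.323 by limma. Idh1, an NADPH-making dehydrogenase of cytosol and peroxisome, had the highest mean of the wider list over the 8 libraries and overlapped at both stages, at log2 fold changes of -0.07 and 0.31. Prdx5, a peroxidase, was at 60.1 and 58.7 FPKM in 8-cell controls and at 53.1 and 47.7 FPKM with TMZ. The groups did not overlap there, at a log2 fold change of -0.23 ± 0.28 (SE, adjusted p = 0.889 by limma). In morulae it was at 70.3 and 79.8 FPKM in the controls and at 70.7 and 68.6 FPKM with TMZ, with overlapping groups. Exons of other genes overlapped 29.8% of its exonic bases. Of the peroxins, Pex16, which works with Pex3 and Pex19 in membrane biogenesis, was at 114 and 118 FPKM in control morulae and at 86.2 and 106 FPKM in TMZ morulae (log2 fold change -0.28 ± 0.17 SE, adjusted p = 0.379 by limma).

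The fission gene Fis1 was lower in both TMZ libraries at both stages, at log2 fold changes of -0.43 ± 0.30 and -0.35 ± 0.18 (SE, adjusted p = 0.809 and 0.312 by limma). Dnm1l, the dynamin of the same machinery, was at 9.90 and 9.35 FPKM in TMZ morulae and at 8.43 and 6.42 FPKM in the controls, and 55.0% of its exonic bases overlap other genes. At the 8-cell stage Dnm1l was at 9.54 and 7.36 FPKM in the controls and at 8.73 and 4.63 FPKM with TMZ, with overlapping groups. Its log2 fold change was -0.34 there and 0.34 in morulae, past the threshold at neither stage. Of the PPAR and RXR genes named, only Rxra passed the filter, and Rxrb, the second by level, did not.

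**Figure D4:**
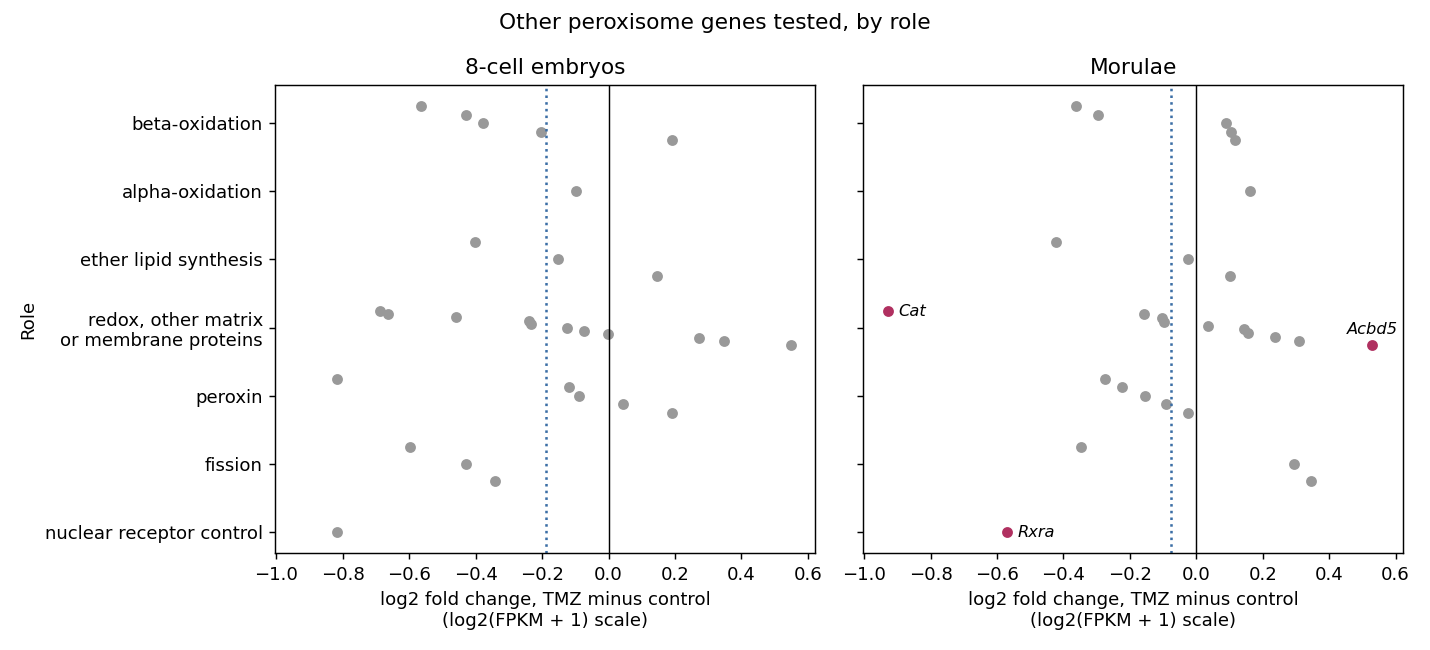
Log2 fold change of TMZ against control (horizontal axis, log2(FPKM + 1) scale) of the other peroxisome genes tested, by role (vertical axis), in 8-cell embryos (left, 29 genes) and morulae (right, 28 genes); red points passed the threshold, and the dotted line is the median of all entries tested. No 8-cell gene is red, and Cat, Rxra and Acbd5 are red in morulae.

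The tissue was checked by markers. Of 15 markers of the preimplantation embryo 12 reached a mean of 1 FPKM at each stage, Dppa3 stood at 10695 FPKM or more in every library and Sox2 at or near 0. Of 12 cumulus and granulosa markers 5 and 6 were named, and none exceeded 0.708 FPKM. In morulae 7 embryo markers (Pou5f1, Nanog, Cdx2, Tfap2c, Klf5, Krt8 and Cdh1) were called lower in TMZ and none higher. Of all entries tested there 10.7% were called lower and 7.16% higher. Dppa3 went the other way, at 10840 and 13228 FPKM in control morulae and 14146 and 17623 FPKM in TMZ morulae, without being called. The sum of the embryo markers without Dppa3 was 240 and 233 FPKM in control morulae and 165 and 132 FPKM in TMZ morulae. Its TMZ libraries both lay below both controls, as for Decr2, Hsd17b4, Pecr, Abcd3 and Pex14. With Dppa3 the sum was 11081 and 13461 FPKM in the controls and 14311 and 17755 FPKM with TMZ. At the 8-cell stage the sum without Dppa3 was 227 and 191 FPKM in controls and 172 and 200 FPKM in TMZ embryos. No marker was called at that stage. The part of these shifts in the values of the 9 genes was not tested.

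Over the 8 libraries, the genes whose pattern was most like that of Decr2 were sought among 7919 other named genes whose mean reached 1 FPKM in both tables. Likeness was the root mean square difference of the centred log2(FPKM + 1) values, which had a median of 0.55 over the genes compared. The closest were Tmem101 (a transmembrane protein) at 0.14, Pigs (a subunit of the GPI transamidase) at 0.15 and Slc46a1 (the proton-coupled folate transporter) at 0.17. Slc46a1, for example, stood at 29.9 and 28.0 FPKM in 8-cell controls and at 17.9 and 13.4 FPKM with TMZ, and at 31.5 and 46.3 FPKM and at 20.9 and 25.1 FPKM in morulae. Control replicate 2 of the morulae was the highest of the morula libraries for each of the 4 genes. Since the genes were picked by these same values, a shared pattern follows from the choice. The median of 0.55 is no yardstick for the smallest differences.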

How the data were processed

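RNA was sequenced from control and TMZ-treated embryos at 2 stages, with 2 libraries per group. Per the submitters' processing notes and the methods of the study, the authors trimmed reads with fastp 0.23.4, aligned them to GRCm39 with STAR 2.7.9a, counted fragments with featureCounts 2.0.6 and deposited FPKM values in a table per stage. The study tested counts with DESeq2, and the Ensembl release and the strand setting were not given in the sources used here. Because an FPKM value steps by the worth of 1 fragment, the steps gave the library totals and the gene lengths, the latter up to a whole factor.

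A pair hidden Markov model aligned the entries to GENCODE vM39 genes in identifier order by exonic length, and transcripts with numbers above 250000 were left out of these lengths. Assignments were kept at a posterior of at least 0.95. With 3000 decoy genes inserted, 1 of 8959 and 0 of 8036 expressed entries were given to decoys, and with 500 genes removed, 14 and 11 of their entries were given to another gene. The lengths of 13 genes disagreed between the tables, among 20601 found in both, and these were dropped. All gene names thus rest on length and order.

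The difference between TMZ and control was tested by limma 3.58.1 (R 4.3.3) on log2(FPKM + 1) values, with no covariate, over entries whose mean reached 1 FPKM, which takes the place of a count test because the deposited unit is FPKM. The threshold was that of the study, and Benjamini-Hochberg adjusted p-values are over all entries. The fit was tested on simulated data. With 2 libraries against 2, an exact two-sided permutation test cannot go below 0.333, so none is given.

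The 9 genes, the lists and the tests were chosen with earlier results of these data known. Named are the 9 genes, the genes of the wider list past the threshold at either stage, the 2 genes of each role with the highest mean over the 8 libraries, markers by ranges, and the 3 genes most like Decr2. The values of 1 gene named by this rule are not reported here. The joint assignment, given as an alternative, was added after the data were seen. Median-ratio scaling was first run over all entries above 0. The form over the tested entries took its place after those values were seen, and both forms are given as alternatives. Of the wider list Abcd2, Hao2, Agxt, Pex2, Pex10 and Ppargc1a were assigned at neither stage and were not analysed here. The labels do not say whether the replicate numbers of the morula libraries mark a shared animal or day. The limits given for counts of 0 cover counting error only.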

Additional observations from a re-analysis of the deposited data

Results flagged for a closer look

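Mff, a receptor of the fission machinery, was flagged because its TMZ libraries lay on opposite sides of the controls at the 2 stages. In 8-cell embryos it stood at 5.75 and 4.24 FPKM in the controls and at 3.22 and 2.65 FPKM with TMZ, a log2 fold change of -0.60. In morulae it stood at 4.24 and 4.35 FPKM in the controls and at 5.34 and 5.65 FPKM with TMZ, a log2 fold change of 0.30. Neither value passed the threshold, and the difference between the stages was not tested because the tables were normalized separately. The gene was picked out by this pattern after its values were seen. Groups of 2 libraries are too small for a test of single libraries that stand apart.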

How the results depend on the processing

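Of 134 values of the single genes of the list under alternatives, 122 moved by less than the SD between replicates, and no called value changed sign. The filters, the stricter posterior and the replicate block cannot change the fold change of a single gene. Their values count among the 122 by construction, so this number overstates the stability. The median over the genes tested at the 8-cell stage was -0.48 and became -0.25 without a filter, -0.38 at a mean of at least 5 FPKM and -0.24 with median-ratio scaling, and ran from -0.60 to -0.49 with a library left out. At the morula stage it stayed within its spread under every alternative run, from -0.63 to -0.30. With only entries of exact or whole-fraction length no gene of the list was left. Over all entries, 135 were higher and 497 lower at the 8-cell stage. At a mean of at least 5 FPKM these were 60 and 221, with median-ratio scaling 268 and 280, and with a library left out 83 to 474 and 193 to 1542, the latter without TMZ library B. In morulae 693 were higher and 1040 lower, 461 and 597 at a mean of at least 5 FPKM, and 350 to 813 and 436 to 1056 with a library left out, the fewest without TMZ replicate 2. Of the other peroxisome genes none was called at the 8-cell stage, and 3 lower (Pxmp2, Pxmp4 and Pex6) without a filter, 1 lower by voom, and 0 to 1 higher and 0 to 2 lower with a library left out. In morulae 1 higher and 2 lower became 0 and 1 at a mean of at least 5 FPKM, and 1 lower without a filter, with median-ratio scaling and with exact lengths only. With a library left out they were 0 to 1 higher and 0 to 1 lower. The joint assignment added Pex5 in morulae to the genes called lower and Tysnd1 to the other genes called lower. Median-ratio scaling over all entries above 0 was run first and replaced after its values were seen, and is kept as an added alternative. It gave 292 higher and 255 lower entries and a median of -0.20 over the genes of the list in 8-cell embryos, and 1022 and 687 entries in morulae, with 0 of the other peroxisome genes called lower. The cause of these moves was not tested. The replicate numbers were not shown to pair the morula libraries. The correlation of the deviations over the entries was 0.076, and 2 pairs cannot decide the question. With the number as a replicate block 838 entries were higher and 1151 lower, and 1 other peroxisome gene was called lower (Cat). No paired analysis was possible at the 8-cell stage because the TMZ columns carry no number. Genes below 1 FPKM (Acox3 at both stages, and Abcd3, Pex5 and Pex14 in 8-cell embryos) were not tested, and Acox3 had at most 30 fragments in a library.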
